A study of Mus musculus with 22 samples.

Results

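The neuronal nicotinic receptor subunits are the 8 genes Chrnb4, Chrna3, Chrna5, Chrna7, Chrna4, Chrnb2, Chrna6 and Chrnb3. They were taken as all probe sets of the array table that carry 1 of these gene symbols, which gave 18 probe sets of 45101, and 8 of the 18194 genes that the table names. The set was drawn up around Chrnb4 because it had the largest fall with Smo2, and around Chrna3 and Chrna5 because they are its neighbours in the genome. These genes were thus chosen by their array signals with Smo2. Those values are given as a description and carry no test.

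The study put cerebellar granule cells of the mouse on 22 Affymetrix expression arrays, in 6 groups. All cells came from cerebella of postnatal day 7 pups, were purified on percoll per the study's methods, and were not separated by the sex of the pups. The strain is C56Bl6/J in the labels and C57BL/6N in the methods. Granule neurons of Chd7 mutants (n = 4), whose Chd7 f/f alleles were deleted by Atoh1-Cre, which is active in the granule lineage and other rhombic lip derivatives, were set against neurons of Chd7 f/f controls (n = 4), called wild type in the labels. Wild-type neurons given ICRF-193 at 10 µM for 12 h, an inhibitor of type II DNA topoisomerases, were set against neurons given its solvent DMSO (n = 4 each). The last pair was cells cultured with Smo2 and cells cultured with none (n = 3 each). The study describes a Smoothened agonist for cultures kept in division, and the labels name Smo2 without saying whether it is that compound. The labels call all arrays biological replicates and do not say how many pups stood behind each, so the p-values measure the spread between these arrays.

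Nicotinic receptors are acetylcholine-gated cation channels built as a ring of subunits. Alpha subunits such as Chrna3 and Chrna4 carry the main face of the binding site, beta subunits such as Chrnb4 and Chrnb2 complete it, Chrna5 and Chrnb3 join as accessory subunits, and Chrna7 can form a receptor on its own. Chrna3 with Chrnb4 is the receptor type known from autonomic ganglia and the medial habenula, Chrna4 with Chrnb2 is the common type of the forebrain, and Chrna6 with Chrnb3 marks dopamine neurons and the retina. In the developing cerebellum granule cells divide in the outer layer under the drive of Sonic hedgehog and then leave the cell cycle and differentiate.

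Chrnb4, Chrna3 and Chrna5 lie next to each other on chromosome 9 of the mouse assembly GRCm38.p6. Chrnb4 and Chrna3 are read from the minus strand and Chrna5 from the plus strand, so that Chrna3 and Chrna5 point towards each other. The spans of the 8 genes run from 10.7 kb (Chrna6) to 31.0 kb (Chrnb3), apart from Chrna7 on chromosome 7 with 114 kb. The 250 bases before the annotated start are shown for the 3 neighbours and for Chrna7 as a description. They were not tested against the array signals. They are RefSeq sequences of build GRCm38.p6, given 5′ to 3′ on the strand of the gene and ending at the base before the start, at chr9:55048545-55048794 (Chrnb4), chr9:55026563-55026812 (Chrna3), chr9:54980630-54980879 (the outer of a pair of Chrna5 starts) and chr7:63212527-63212776 (Chrna7). Capitals mark a GC box (GGGCGG on either strand) or an E-box of the form CAGCTG, which reads the same on both strands. Other forms of E-box were not searched and are not marked.
Chrnb4: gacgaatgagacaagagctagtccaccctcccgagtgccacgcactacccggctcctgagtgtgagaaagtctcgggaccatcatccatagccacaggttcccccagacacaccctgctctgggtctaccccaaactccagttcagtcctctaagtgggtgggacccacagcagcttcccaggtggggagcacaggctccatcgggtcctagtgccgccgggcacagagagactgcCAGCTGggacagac
Chrna3: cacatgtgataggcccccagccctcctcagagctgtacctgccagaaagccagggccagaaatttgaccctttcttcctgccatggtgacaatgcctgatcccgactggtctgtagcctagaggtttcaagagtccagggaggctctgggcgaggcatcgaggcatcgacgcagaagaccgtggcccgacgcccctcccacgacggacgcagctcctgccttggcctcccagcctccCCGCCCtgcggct
Chrna5: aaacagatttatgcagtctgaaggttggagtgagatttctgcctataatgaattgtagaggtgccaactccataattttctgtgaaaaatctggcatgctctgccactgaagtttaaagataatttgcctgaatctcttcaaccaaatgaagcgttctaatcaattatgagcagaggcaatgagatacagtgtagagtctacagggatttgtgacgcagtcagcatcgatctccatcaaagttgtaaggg
Chrna7: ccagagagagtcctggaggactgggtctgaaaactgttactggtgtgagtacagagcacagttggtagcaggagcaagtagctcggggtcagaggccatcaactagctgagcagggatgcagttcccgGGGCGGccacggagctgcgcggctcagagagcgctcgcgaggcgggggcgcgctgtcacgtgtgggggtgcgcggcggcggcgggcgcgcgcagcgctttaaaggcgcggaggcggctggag
The Chrnb4 window held 1 E-box of that form, 14 to 9 bases before the start, and no GC box. The Chrna3 window held 1 GC box, 13 to 8 bases before the start, and no E-box of that form. The Chrna7 window held 1 GC box, and the Chrna5 window shown held neither and had 40.0% G and C, against 61.2% for Chrnb4 and 63.2% for Chrna3. The window of the inner Chrna5 start, at chr9:54981238-54981487 and not shown, held 4 GC boxes and 65.2% G and C. Of the 32851 windows of this length that were given, 32.7% held a GC box, 13.0% an E-box CAGCTG and 0.225% the Gli motif GACCACCCA. All were searched on both strands, and none of the 3 motifs is part of another. The Gli motif was in none of the 7 windows of the 6 genes that had one, which says only that these letters are not there. No window was given for Chrna6 and Chrnb3.

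The deposited signals of each array had a trimmed mean of 500. They were raised to at least 16, taken to log2 and quantile normalized, so that a value of 4 is the floor and a step of 1 is a doubling. Bright is used for a mean of at least 6.44 over the 22 arrays, the median over all probe sets. Of the 18 probe sets 8 were bright and stood for 5 genes: Chrnb4 (1457008_at), Chrna3 (1452010_at, 1455931_at and 1444368_at), Chrna7 (1440681_at), Chrna4 (1421203_at) and Chrnb2 (1436428_at and 1420744_at). The other 10, with means from 4.68 to 6.13, included all probe sets of Chrna5, Chrna6 and Chrnb3, and 41 of their 220 values lay at the floor. As a check of the labels, the Chd7 probe set 1437745_at had 9.47 ± 0.54 in Chd7 mutant and 11.50 ± 0.23 in control arrays, and 1448026_at had 11.65 ± 0.25 and 11.89 ± 0.13 (SD, n = 4). The sources used here do not say where these probe sets lie relative to the deleted part. All 9 granule cell markers were measured and 8 of them were bright. In 2 of the comparisons the arrays also resembled each other in sets, replicates 1 and 2 and replicates 3 and 4, and the labels do not say what these sets are.

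Chrnb4, the beta subunit of the ganglionic receptor, was chosen for the largest difference downwards with Smo2 of all 42623 probe sets compared, so its rank is no result. That rank was the same on the signals as deposited and with median centring. It was 6 with a floor of 4 and 60 with a floor of 64, where the difference was -1.84. Probe set 1457008_at had 4.00, 4.87 and 5.01 with Smo2 against 8.08, 7.44 and 8.0 without it. Every Smo2 array was thus far below every array without Smo2, and the lowest Smo2 value, a deposited signal of 9.22, was under the floor. The difference was -3.21 or beyond, a 9.28-fold lower level, between means of 4.63 ± 0.55 with Smo2 and 7.84 ± 0.35 without it (SD, n = 3). The next probe set in that order, of Fbxo44, had a difference of -3.04. The dimmer Chrnb4 probe set, 1425849_at, had 4.90, 5.06 and 5.15 with Smo2 against 6.46, 6.38 and 6.82 without it, a difference of -1.52. In these bulk samples fewer cells that make a transcript and less of it per cell cannot be told apart.

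Chrna3, the alpha subunit that partners Chrnb4 in ganglia, was lower with Smo2 by nearly the same amount on its 3 probe sets. Probe set 1452010_at had 9.70, 9.51 and 9.55 with Smo2 against 11.11, 11.13 and 11.06 without it, a difference of -1.52. Probe set 1455931_at had 8.89, 8.97 and 8.97 with Smo2 against 10.59, 10.61 and 10.49 without it, a difference of -1.62 or 3.07-fold. Both sets of arrays were tight, with an SD of at most 0.10 in each group, and stood well apart. Probe set 1444368_at had 5.81, 5.61 and 5.20 with Smo2 against 7.22, 7.08 and 6.91 without it, a difference of -1.53, and again the groups did not overlap. By size of difference these Chrna3 probe sets ranked 536, 365 and 506 from the lowest of 42623.

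Chrna5, the accessory subunit at the other end of the cluster, had overlapping groups. Probe set 1442035_at had 5.69, 5.73 and 5.92 with Smo2 against 5.34, 5.88 and 6.48 without it, a difference of -0.12. Probe set 1427401_at had 6.44, 6.00 and 5.08 with Smo2 against 6.77, 6.71 and 5.97 without it, a difference of -0.64. Both probe sets are dim, and neither set the groups apart. Of the genes that flank the cluster, which were tested since they are not members, Hykk, a hydroxylysine kinase, fell by 0.84 (limma adjusted p = 0.0234, with the replicate block 0.0721), and the proteasome subunit Psma4 rose by 0.48 (adjusted p = 0.00758). The metalloprotease Adamts7, on a dim probe set, rose by 0.82 (limma adjusted p = 0.0402), and the iron regulatory protein Ireb2 had a difference of -0.24 (adjusted p = 0.0661). The flanking genes therefore differed in direction.

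**Figure D1:**
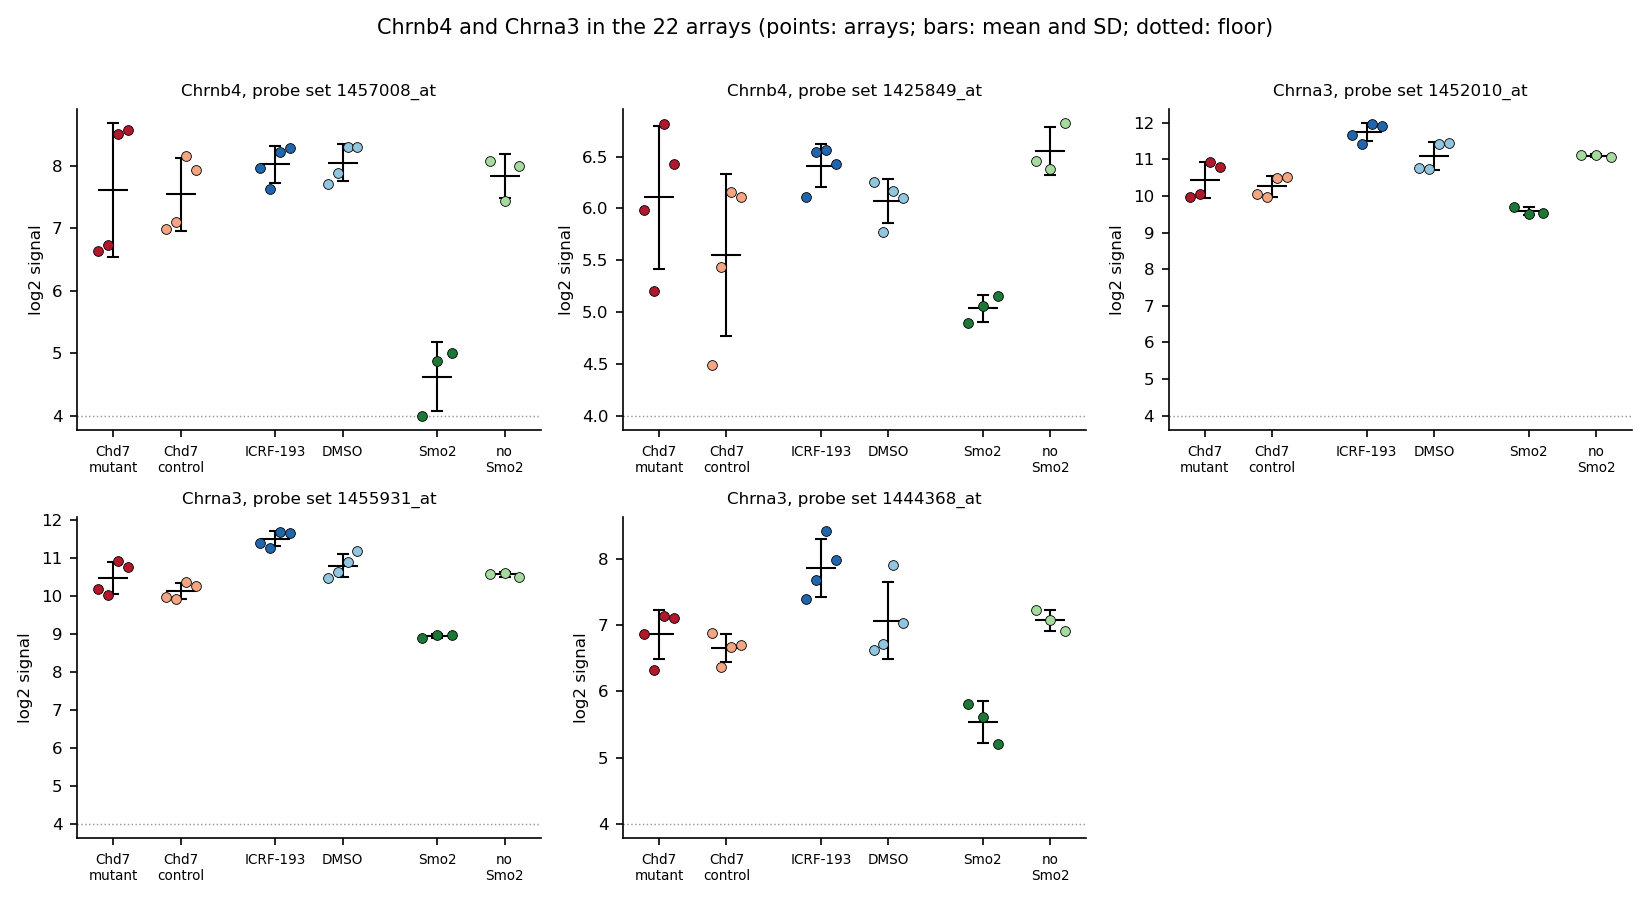
Log2 signal of the 2 Chrnb4 and 3 Chrna3 probe sets on each array (points) in the 6 groups, with mean and SD as bars and the floor of 4 as a dotted line. With Smo2 all 5 probe sets lie below the arrays without Smo2, Chrnb4 1457008_at at 4.00 to 5.01 against 7.44 to 8.08, and the Chd7 arrays of Chrnb4 fall into a lower and an upper set in both genotypes.

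Chrnb2, the beta subunit of the forebrain receptor, was lower with Smo2 on its 3 probe sets, by less. Probe set 1436428_at had 8.53, 8.50 and 8.26 with Smo2 against 9.18, 9.0 and 9.23 without it, a difference of -0.70. Probe set 1420744_at had 6.52, 6.85 and 7.04 with Smo2 against 7.21, 7.11 and 7.22 without it, a difference of -0.38 with a narrow gap between the groups. The dim probe set 1441837_at had a difference of -0.82, between 4.87 to 5.21 with Smo2 and 5.65 to 6.11 without it. Its alpha partner Chrna4 had 6.60, 6.51 and 6.08 with Smo2 against 6.70, 6.11 and 6.87 without it on its bright probe set, a difference of -0.16 with overlapping groups. Chrna7, the subunit of the homomeric receptor, had 7.94, 7.98 and 7.70 with Smo2 against 7.89, 8.03 and 8.01 without it on 1440681_at, a difference of -0.10, and its groups overlapped as well. The dim probe sets of Chrna4, Chrna7, Chrna6 and Chrnb3 had differences from -1.09 to 0.76 and overlapped in each case.

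In all, 8 of the 18 probe sets were lower with Smo2 without overlap of the groups and 0 were higher, and these 8 were those of Chrnb4, Chrna3 and Chrnb2. Of all 42623 probe sets, 23.7% were lower without overlap and 19.8% higher, or 18.4% and 32.3% when the arrays were centred on their medians in place of quantile normalization. The same 8 were lower without overlap under that centring too. The median difference was -0.69 over the 18 probe sets and -0.05 over all. Of all probe sets, 5.56% were lower by at least 2-fold without overlap, which 5 of the 18 were. Since Smo2 chose the set, nothing is read from these shares.

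The Smo2 arrays also differed in the markers measured beside the receptor genes. Of the 7 hedgehog and cell cycle genes all 7 rose, among them Gli1, the hedgehog effector, by 4.27 (limma adjusted p = 0.000838), the cyclin Ccnd1 by 5.73 (adjusted p = 7.98e-05) and Mki67 by 2.88 (adjusted p = 0.000112). Of 9 granule lineage markers 7 fell and Atoh1, which marks the progenitors, rose by 1.74 (limma adjusted p = 0.000329). Of the markers of other cells, 5 of 5 astrocyte, 3 of 3 measured interneuron, 2 of 3 unipolar brush cell, 2 of 4 Purkinje cell and 3 of 4 microglial markers fell. Of 4 measured oligodendrocyte markers Sox10 and Mbp fell and Olig2 rose by 1.19 (limma adjusted p = 0.00115), 2 of 6 muscle genes rose, and 0 of 5 vascular and meningeal markers were called, with a median difference of 0.84. The summed log2 signal of the interneuron list was 10.30 to 10.51 with Smo2 against 11.81 to 11.84 without it, that of the unipolar brush cell list 9.87 to 10.08 against 11.51 to 11.63, and that of the astrocyte list 10.14 to 10.48 against 11.58 to 11.84. Every interneuron and astrocyte marker measured was bright, and of the unipolar brush cell list only Lmx1a was dim, with a mean of 4.00 without Smo2. The part of these cells in the receptor values was not tested.

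**Figure D2:**
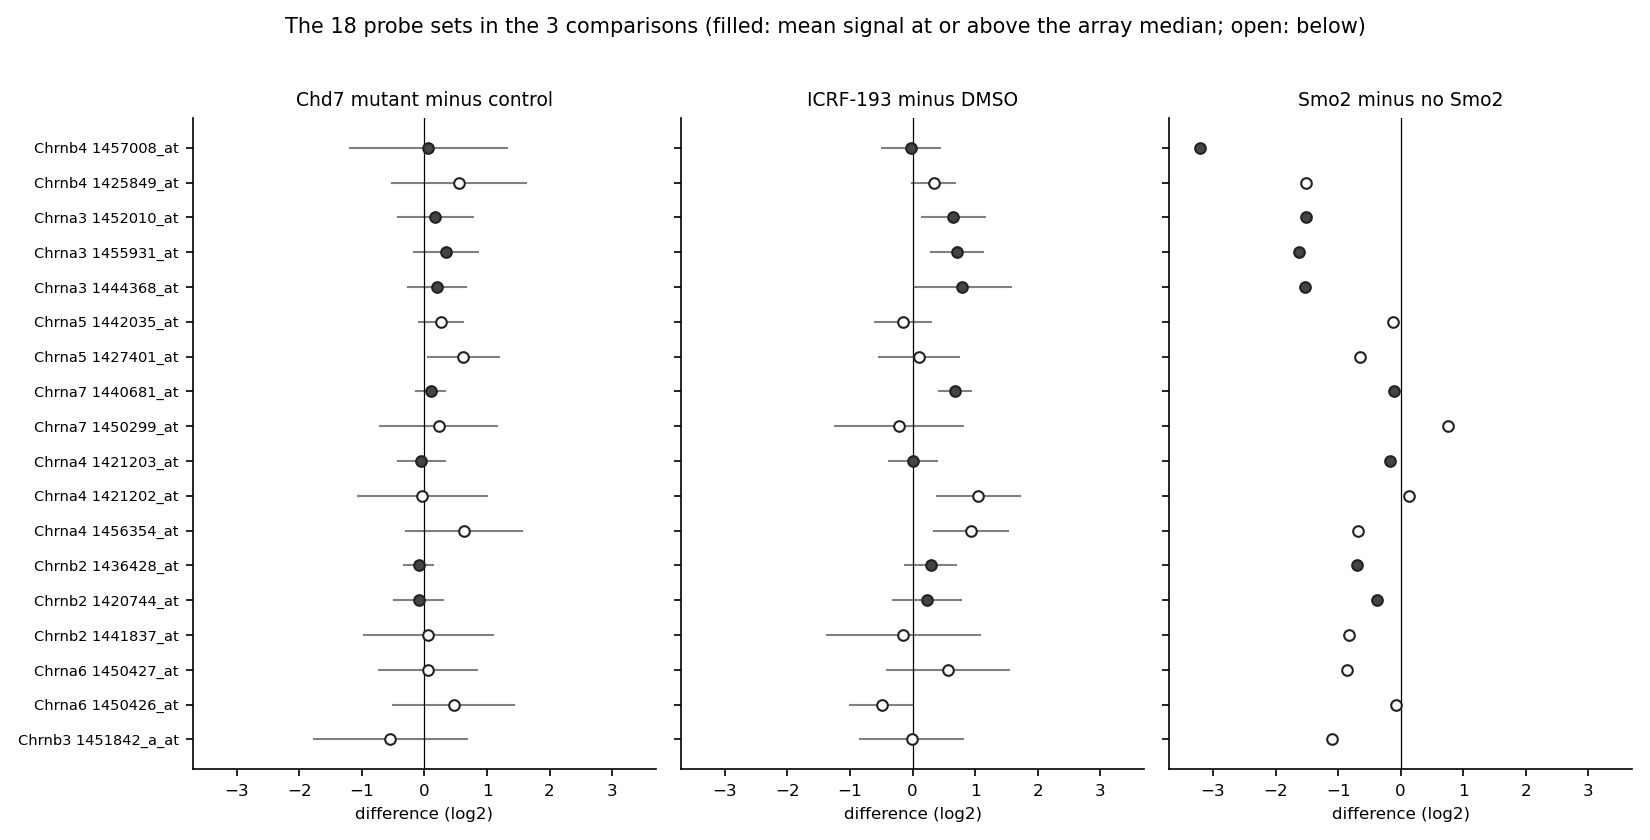
Difference on the log2 scale for each of the 18 probe sets in the 3 comparisons, filled for bright and open for dim probe sets, with 95% confidence intervals from limma for the Chd7 and ICRF-193 comparisons and none for Smo2, whose values chose the set. Chrnb4 lies at -3.21 and -1.52 and Chrna3 between -1.62 and -1.52 with Smo2, while with ICRF-193 the Chrna3 probe sets lie between 0.65 and 0.80 and bright Chrna7 at 0.68.

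The ICRF-193 comparison asks which transcripts depend on the activity of type II topoisomerases in granule neurons. The rule for the genes does not use its values, although earlier results of it were known. Chrna7 rose. Its bright probe set 1440681_at had 8.50, 8.47, 8.62 and 8.67 with ICRF-193 against 7.72, 8.03, 8.01 and 7.76 with DMSO. The groups did not overlap, and the difference was 0.68, or 1.61-fold, with an SE of 0.11 (limma adjusted p = 0.0261). Of the 18 probe sets this was the 1 called higher, and 0 were called lower, against 0.618% and 1.02% of the 43513 probe sets tested. At an unadjusted p under 0.05, 6 were higher and 0 lower, against 5.66% and 5.44% of all. The 6 were the Chrna3 probe sets, the dim Chrna4 probe sets and 1440681_at, so several of them stand for the same gene. With the replicate number as a block the Chrna7 difference was the same and the call was lost (adjusted p = 0.111). With the sets of replicates as a block the call was kept, in a fit that called 1.18% of all probe sets higher. On the signals as deposited and with median centring it was lost. It was also lost when any single array but DMSO replicate 2 was left out (adjusted p = 0.0443 to 0.0886 over the 8 omissions, differences from 0.63 to 0.73). Within replicates 1 and 2 the difference was 0.61, and within replicates 3 and 4 it was 0.76. The dim Chrna7 probe set 1450299_at had a difference of -0.22 (adjusted p = 0.909), with 3 of 4 ICRF-193 arrays at the floor, so the 2 probe sets of the gene gave unequal differences.

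The Chrna3 probe sets were higher with ICRF-193 by amounts that did not pass over all probe sets. Probe set 1452010_at had 11.66, 11.42, 11.95 and 11.92 with ICRF-193 against 10.75, 10.75, 11.41 and 11.43 with DMSO, a difference of 0.65 (limma adjusted p = 0.285). Probe set 1455931_at had 11.40, 11.27, 11.67 and 11.67 with ICRF-193 against 10.47, 10.63, 10.90 and 11.18 with DMSO, a difference of 0.70 (adjusted p = 0.147) without overlap. Probe set 1444368_at had 7.39, 7.67, 8.42 and 7.98 with ICRF-193 against 6.62, 6.71, 7.91 and 7.04 with DMSO, a difference of 0.80 (adjusted p = 0.431). In both groups replicates 3 and 4 stood above replicates 1 and 2 on the brighter probe sets, and with these sets as a block the first 2 were called (limma adjusted p = 0.0214 and 0.0187) in a fit that called 1.18% of all probe sets higher. With the replicate number as a block none of the 3 was (adjusted p = 0.110, 0.0998 and 0.0863).

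Chrnb4 itself had a difference near 0 with ICRF-193. Probe set 1457008_at had 7.97, 7.63, 8.23 and 8.28 with ICRF-193 against 7.72, 7.88, 8.31 and 8.31 with DMSO. The groups lay over each other, with a difference of -0.03 and a 95% interval from -0.50 to 0.44 (limma adjusted p = 0.980). The dim probe set 1425849_at had a difference of 0.34 (adjusted p = 0.465). Both Chrna5 probe sets overlapped between the groups, with differences of -0.15 and 0.10.

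The forebrain subunits had small differences on their bright probe sets. Chrna4 1421203_at had 6.56, 6.75, 7.0 and 6.64 with ICRF-193 against 6.48, 6.86, 7.06 and 6.54 with DMSO, a difference of 0.00 (limma adjusted p = 0.997). Its dim probe sets 1421202_at and 1456354_at had differences of 1.05 (adjusted p = 0.179) and 0.93 (adjusted p = 0.178), each without overlap between the groups, and 1 and 2 of the 4 DMSO arrays at the floor. The probe sets of Chrna4 thus gave unequal differences. Chrnb2 had 8.75, 9.44, 9.25 and 9.35 with ICRF-193 against 8.71, 9.06, 9.08 and 8.77 with DMSO on 1436428_at, a difference of 0.29 (limma adjusted p = 0.638), and 0.23 on 1420744_at (adjusted p = 0.795). Chrna6 and Chrnb3, on dim probe sets, had differences from -0.50 to 0.57, and none passed.

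With ICRF-193, 4 of the 18 probe sets were higher without overlap and 0 were lower, against 4.11% and 3.76% of all probe sets. The 4 were the Chrna7, Chrna3 and dim Chrna4 probe sets named above. The median difference was 0.26 over the 18 and 0.01 over all. Among the markers, Eomes, a transcription factor of unipolar brush cells, rose by 0.95 (limma adjusted p = 0.00855, with the replicate block 0.0535). That list's summed log2 signal was 12.31 to 12.83 with ICRF-193 against 11.71 to 11.80 with DMSO. The interneuron list was lower without overlap, with 11.73 to 12.00 against 12.20 to 12.41, and 0 of 3 were called. The oligodendrocyte list was lower too, with 11.40 to 12.11 against 12.13 to 12.78 and 0 of 4 called. So was the granule list, with 16.26 to 16.36 against 16.41 to 16.49. The astrocyte list overlapped, with 9.64 to 10.26 against 9.93 to 10.74 and 0 of 5 called. Of the granule cell markers Rbfox3, the nuclear protein NeuN, fell by 1.02 (limma adjusted p = 0.00175), and the other 8 were not called. The part of these markers in the receptor values was not tested.

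**Figure D3:**
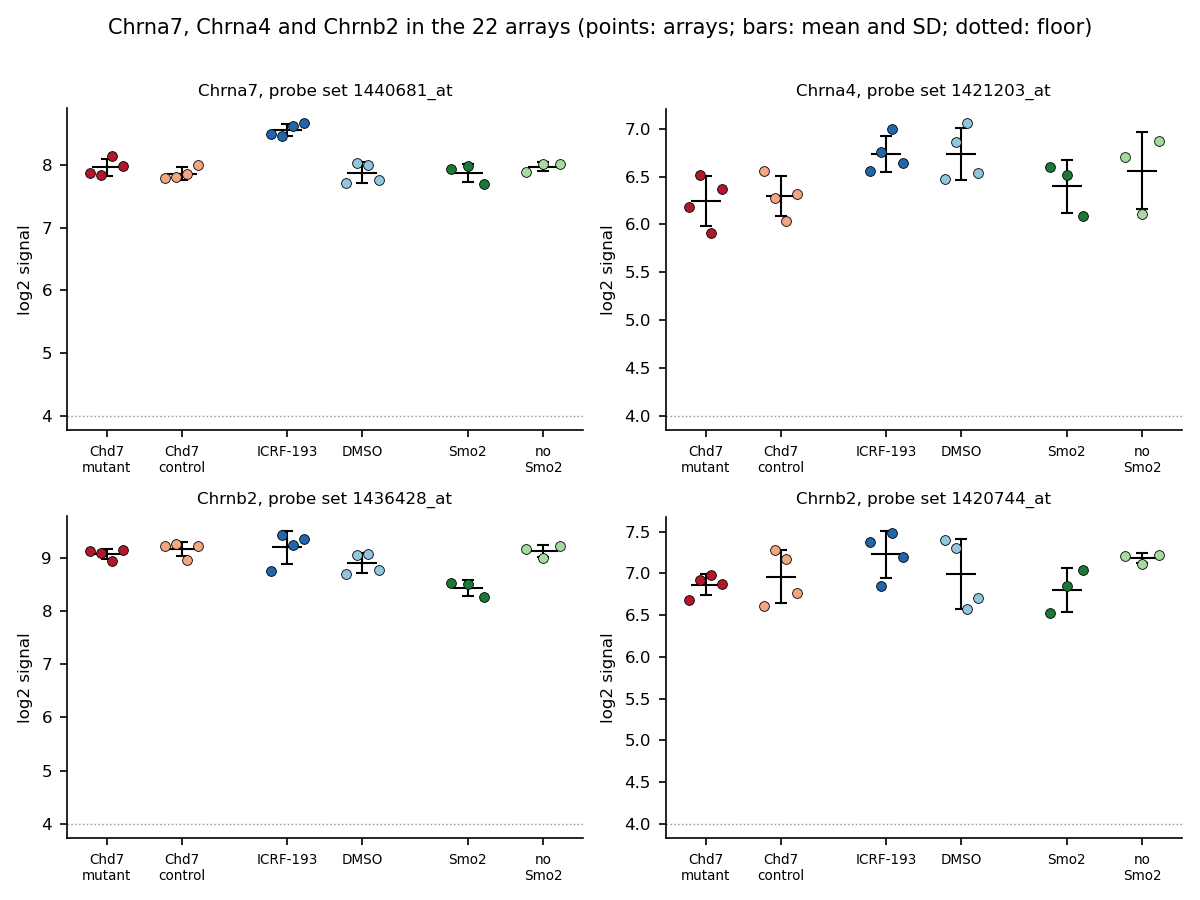
Log2 signal of the bright probe sets of Chrna7, Chrna4 and Chrnb2 on each array (points) in the 6 groups, with mean and SD as bars; the signal axes differ between panels, and the floor of 4 is dotted. The ICRF-193 arrays of Chrna7 lie at 8.47 to 8.67, above every other array, and the Smo2 arrays of Chrnb2 1436428_at at 8.26 to 8.53.

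The Chd7 comparison asks which transcripts depend on the chromatin remodeller Chd7, and no receptor gene passed in it. Of the 18 probe sets 0 were called lower and 0 higher by limma, against 0.772% and 0.898% of the 42995 tested, and the smallest adjusted p was 0.302. At an unadjusted p under 0.05, 1 was higher, the dim Chrna5 probe set 1427401_at, with a difference of 0.62, and 0 were lower, against 7.19% and 7.31% of all. In 0 of the 18 did the groups stand apart, against 11.2% of all probe sets. The median difference was 0.14 over the 18 and -0.01 over all.

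Chrnb4 differed more between sets of replicates than between genotypes. Probe set 1457008_at had 6.63, 6.73, 8.51 and 8.57 in Chd7 mutant against 6.99, 7.11, 8.15 and 7.93 in control arrays. In both genotypes replicates 3 and 4 lay above replicates 1 and 2, by more in the mutant. The mean difference was 0.06 with a 95% interval from -1.19 to 1.32 (limma adjusted p = 0.972), a difference of -0.37 within replicates 1 and 2 and 0.50 within replicates 3 and 4. The spread within each genotype, 1.08 in mutant and 0.58 in control arrays (SD, n = 4), leaves a change of 2-fold either way inside the interval.

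The brighter Chrna3 probe sets showed the same sets of arrays. Probe set 1452010_at had 9.98, 10.05, 10.92 and 10.79 in Chd7 mutant against 10.06, 9.97, 10.49 and 10.52 in control arrays, a difference of 0.17 (limma adjusted p = 0.792). Probe set 1455931_at had 10.19, 10.02, 10.91 and 10.75 in mutant against 9.98, 9.92, 10.36 and 10.25 in control arrays, a difference of 0.34 (adjusted p = 0.540). On 1444368_at the control means were close, 6.63 in replicates 1 and 2 and 6.68 in replicates 3 and 4. The mutant means there were 6.60 and 7.12. Within replicates 3 and 4 the 3 Chrna3 probe sets had differences of 0.35, 0.53 and 0.44, and within replicates 1 and 2 of -0.0024, 0.16 and -0.029. The fits within either set, and the fit with the replicate block, called 0 of all probe sets, so they say nothing about single genes.

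Chrna7, Chrna4 and Chrnb2 had narrower intervals. Chrna7 1440681_at had 7.87, 7.85, 8.15 and 8.0 in mutant against 7.80, 7.81, 7.86 and 8.01 in control arrays, a difference of 0.10 with a 95% interval from -0.14 to 0.33. Chrnb2 1436428_at had 9.13, 9.09, 8.94 and 9.15 in mutant against 9.23, 9.26, 8.97 and 9.22 in control arrays, a difference of -0.09 with an interval from -0.32 to 0.14. Chrna4 1421203_at had 6.18, 6.52, 5.91 and 6.37 in mutant against 6.56, 6.28, 6.04 and 6.32 in control arrays, a difference of -0.05 with an interval from -0.43 to 0.33. On these 3 probe sets a change of 2-fold lay outside the interval. The same held for Chrna3, with intervals from -0.42 to 0.77 (1452010_at), -0.17 to 0.86 (1455931_at) and -0.26 to 0.67 (1444368_at). The 10 dim probe sets had differences from -0.54 to 0.63 and adjusted p-values from 0.302 to 0.982.

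In the Chd7 arrays the summed log2 signal of 3 Y-linked genes was 5.58 to 8.64 in mutant and 10.25 to 10.77 in control arrays, and that of 6 muscle genes was 10.13 to 11.09 in mutant and 8.53 to 8.99 in control arrays, with 3 of the 6 called higher and 0 with the replicate block. The vascular and meningeal list also did not overlap, with 11.44 to 11.49 in mutant and 10.28 to 10.41 in control arrays and 0 of 5 called, nor did the oligodendrocyte list, with 13.36 to 13.91 in mutant and 11.54 to 13.25 in control arrays and 0 of 4 called. The granule list was lower without overlap, with 16.23 to 16.37 in mutant and 16.42 to 16.45 in control arrays and 0 of 9 called. The astrocyte list overlapped, with 11.79 to 13.79 in mutant and 11.26 to 12.71 in control arrays. The part of any of them in the receptor values was not tested.

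**Figure D4:**
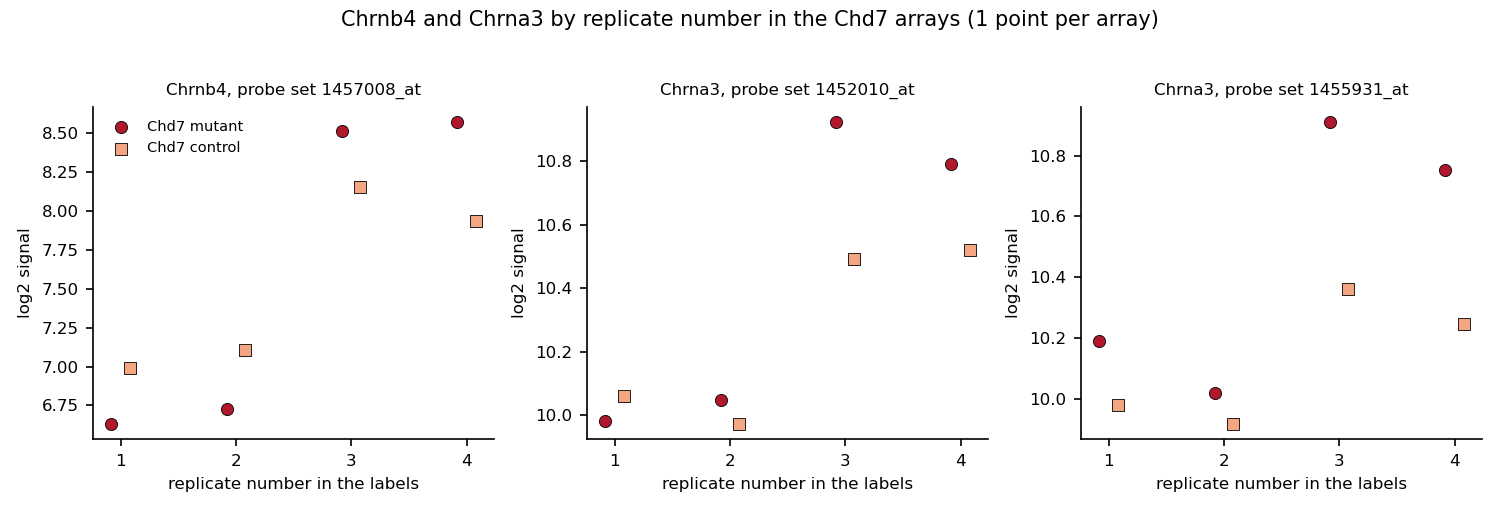
Log2 signal of Chrnb4 1457008_at and of the brighter Chrna3 probe sets in the Chd7 mutant (circles) and control (squares) arrays, by the replicate number in the labels. Chrnb4 has 6.63 and 6.73 in mutant replicates 1 and 2, under the controls' 6.99 and 7.11, and 8.51 and 8.57 in mutant replicates 3 and 4, over the controls' 8.15 and 7.93.

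Over the 6 groups the order of the levels differed between genes. The 3 comparisons were run as separate experiments, so the order across them may hold differences between experiments. Chrnb4 1457008_at had means of 8.05 ± 0.30 with DMSO, 8.03 ± 0.30 with ICRF-193, 7.84 ± 0.35 without Smo2, 7.61 ± 1.08 in the Chd7 mutant, 7.55 ± 0.58 in its control and 4.63 ± 0.55 with Smo2 (SD, n = 4, or 3 for the Smo2 arrays). Only the last step, of 2.92 to the Smo2 arrays, exceeded the larger SD of the neighbours. For Chrna3 1452010_at the order was ICRF-193 (11.74 ± 0.25), no Smo2 (11.10 ± 0.04), DMSO (11.09 ± 0.39), Chd7 mutant (10.44 ± 0.49), its control (10.26 ± 0.29) and Smo2 (9.58 ± 0.10). Here 3 of the steps exceeded the larger SD, those from ICRF-193 to no Smo2, from DMSO to the Chd7 mutant and from the Chd7 control to Smo2. Chrna7 1440681_at had 8.57 ± 0.10 with ICRF-193, and the other 5 groups lay between 7.87 and 7.98 with steps under their SD. Chrnb2 1436428_at ranged from 9.20 ± 0.31 with ICRF-193 to 8.91 ± 0.20 with DMSO in steps under the SD, and only the step down to 8.43 ± 0.15 with Smo2 exceeded it. No step of Chrna4 1421203_at, from 6.74 ± 0.19 with ICRF-193 to 6.25 ± 0.26 in the Chd7 mutant, exceeded the SD of its neighbours.

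The genes most like Chrnb4 were ranked by Pearson's r with probe set 1457008_at over the 22 arrays, each array centred on the mean of its own comparison, among 19721 bright probe sets of other genes. The arrays share their experiment and their set of replicates, and the Smo2 difference weighs most in such an r, so it is given as a description. The 5 highest were Kcnc1, a potassium channel of fast-firing neurons (r = 0.95), Pnisr (0.95), Prickle2, a planar polarity protein (0.95), Iffo2 (0.95) and Sez6, a neuronal membrane protein (0.94), with Smo2 differences from -1.65 to -0.78. The 5 lowest were Blmh, a cysteine protease (-0.94), the malate dehydrogenase Mdh1 (-0.94), cytochrome c, Cycs (-0.93), the copper chaperone Cox17 (-0.93) and the polymerase subunit Pole4 (-0.93), with Smo2 differences from 0.66 to 1.09. Among the receptor genes Chrna3 came nearest, with 0.86 on both of its brighter probe sets, at ranks 221 and 247. The other bright ones had 0.70 (Chrna3 1444368_at), 0.55 and 0.39 (Chrnb2), 0.19 (Chrna7) and 0.06 (Chrna4). With each array centred on its own group, which removes the differences between groups, the brighter Chrna3 probe sets had r of 0.81 and 0.85 with Chrnb4, and the other bright ones ranged from -0.18 to 0.41. That centring leaves the sets of replicates in place. With the Chd7 and ICRF-193 arrays centred on their set as well, a choice made after seeing the data, the r of Chrna3 was -0.36 and 0.19, so the likeness within groups rested on the shift between the sets.

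**Figure D5:**
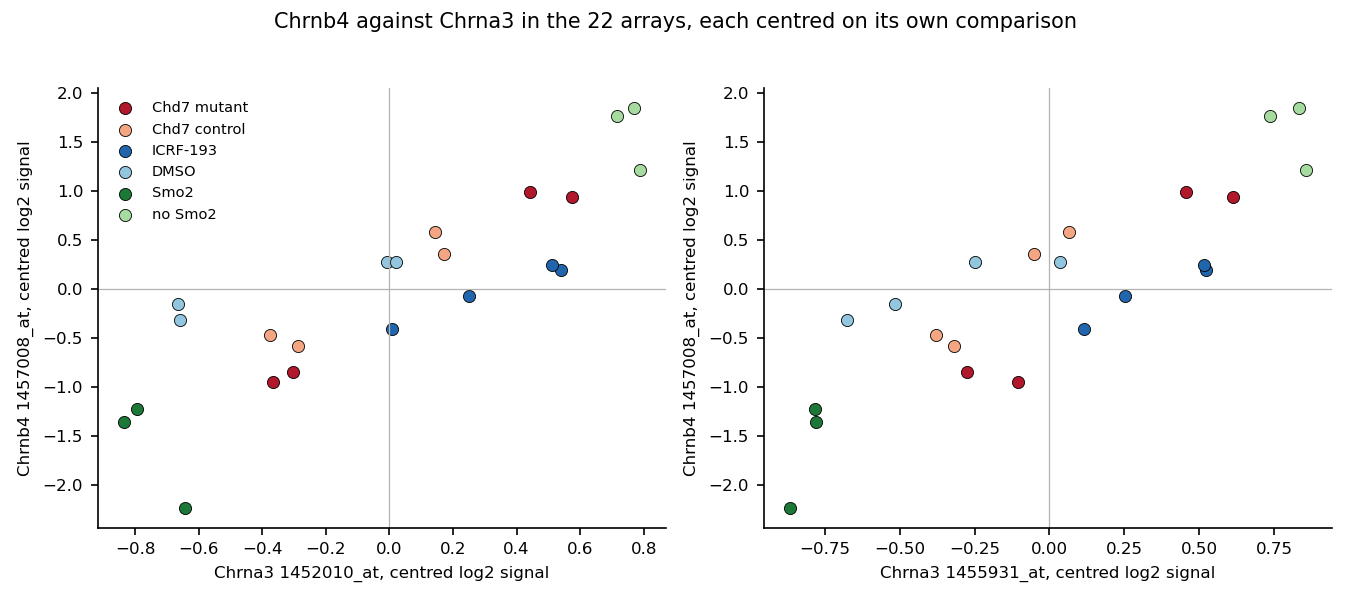
Chrnb4 1457008_at (vertical) against the 2 brighter Chrna3 probe sets (horizontal) on the 22 arrays, in log2 signal centred on the mean of each comparison, coloured by group. The points rise together (r = 0.86 in both panels), with the Smo2 arrays at the lower left, the arrays without Smo2 at the upper right, and the Chd7 arrays in a lower and an upper set.

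The rest of the cholinergic system was followed in a list of 26 genes, of which 23 were on the arrays, by the brightest probe set of each. Only 5 of the 23 were bright. In the Chd7 mutant 1 of 23 rose, Lynx1, a membrane protein that binds nicotinic receptors, by 0.49 (limma adjusted p = 0.0450, with the replicate block 0.108), and 0 fell, against 1.31% and 0.802% of the 17592 genes tested. With ICRF-193 0 of 22 testable genes were called lower or higher, against 1.16% and 0.875% of all genes. With Smo2 4 of 21 fell (19.0%) and 3 rose (14.3%), against 19.8% and 16.8% of 17492 genes, shares near the background.

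The 4 that fell with Smo2 all belong to the chaperones and binding proteins of nicotinic receptors, a list of 8. That list held 4 of the 5 bright genes, and these were the 4 that fell, so nothing is read from their share of it. Ly6h, which lowers nicotinic receptors at the cell surface, fell by 1.85 (limma adjusted p = 0.000343), between 10.31 with Smo2 and 12.16 without it. Tmem35a, the receptor chaperone also called NACHO, fell by 0.84 (adjusted p = 0.00154), Lynx1 by 0.53 (adjusted p = 0.0283) and the chaperone Ric3 by 0.44 (adjusted p = 0.0422). With the replicate number as a block, Lynx1 (adjusted p = 0.0620) and Ric3 (0.125) were no longer called. Arrays of the same number did not resemble each other with Smo2 (r from 0.019 to 0.036), so that block rests on no pairing. Lypd6, of the same list but on a dim probe set, rose by 1.29 (limma adjusted p = 0.0106, with the replicate block 0.0615). The genes of acetylcholine supply Chat, Slc18a3 and Slc5a7 were dim, and their differences with Smo2 ran from -0.13 to 0.72 with none called. Bche, a cholinesterase, rose by 1.65 (limma adjusted p = 0.00329), and Ache, the main one, had a difference of -0.43 (adjusted p = 0.101).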

How the data were processed

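Affymetrix mouse expression arrays were hybridised with biotinylated cRNA made from 6 ug of total RNA. The deposited values are linear signal intensities of 45101 probe sets that the authors had scaled to a trimmed mean of 500 on each array. No source used here names the software behind them, and intensities give no depth or detection call. Signals were floored at 16, taken to log2 and quantile normalized over the 22 arrays. Probe sets were named from the platform annotation, in which 34958 carry 1 gene symbol, and 0 of 231 pairs of arrays were identical. The 3 comparisons were tested separately with lmFit and eBayes (limma 3.58.1, R 4.3.3; two-sided) over all probe sets that were not constant, with Benjamini-Hochberg adjustment over all of them and calls under 0.05. The members and all lists were chosen with earlier results of these data known, and the named genes are the members, the listed genes whose call or difference is stated, and the 5 genes at each end of the likeness to Chrnb4. Each listed gene stands on its brightest probe set. Deviations from group means correlated by 0.30 to 0.35 between mutant and control arrays of the same number and by 0.28 to 0.41 between ICRF-193 and DMSO arrays of the same number, so the replicate block was also fitted. Arrays of another number in the same set correlated about as much, by 0.27 to 0.36 and by 0.32 to 0.34. The likeness thus followed the sets rather than the number, and the sets were also fitted as a block. In the Smo2 comparison arrays of the same number correlated by 0.019 to 0.036, under the 0.1 set as the least for a pairing. The replicate block values given for Smo2 therefore rest on no pairing. The fits were tested on simulated data. Plots used Python 3.11.15 and matplotlib 3.10.9.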

Additional observations from a re-analysis of the deposited data

Results flagged for a closer look

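In 4 of 72 groups of 4 arrays, 1 array lay far from the others for its group's range, and chance alone gives about 1 in 20. That rate does not hold where the other arrays are tied at the floor, as for Chrna7 and Chrnb3 below. Chrnb2 1436428_at had 8.97 in Chd7 control replicate 3, where the other 3 control arrays had 9.22 to 9.26. In the same array the dim Chrnb2 probe set 1441837_at was at the floor, 4.00, where the others had 5.82 to 6.11. The dim Chrna7 probe set 1450299_at had 5.46 in ICRF-193 replicate 1 and the floor in the other 3 arrays. Chrnb3 had 5.36 in Chd7 mutant replicate 3 and the floor in the other 3 mutant arrays. Leaving out Chd7 control replicate 3 gave no call among the 18 probe sets.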

How the results depend on the processing

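The number of arrays, signals near the floor and the unexplained sets of replicates limit these values. The ICRF-193 count of 1 receptor probe set called higher became 0 on the signals as deposited, with median centring, with the replicate block, within either set of replicates, and with set means as samples, with or without the set as a block, an alternative added after the data were seen. It was 3 with the set as a block and 5 by the methods' t-test at an unadjusted p under 0.05 and 1.5-fold, fits that called 1.18% and 2.23% of all probe sets higher against 0.618%, and 0 to 1 without single arrays. The fits within either set and on set means called 0 of all probe sets, so they bear on no single gene, and the other causes were not tested. No alternative gave a receptor probe set called lower with ICRF-193, or called either way in the Chd7 mutant, where the fits within either set, on set means and with the replicate block called 0 of all. With a floor of 64 the Smo2 differences shrank to -1.84 and -0.56 for Chrnb4 and -1.07 for Chrna3 1444368_at, whose low values that floor replaces, and 7 of the 8 separated probe sets remained so. Median centring, which put the median of all probe sets at 0.10 in place of -0.05, gave -1.34 and -1.46 for the brighter Chrna3 probe sets. Without single arrays the Smo2 differences ran from -3.41 to -2.90 and -1.60 to -1.39 for Chrnb4, and from -1.67 to -1.36 for Chrna3.

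Some of the smaller differences changed sign. In the Chd7 comparison these were Chrna4 1421203_at as deposited (0.028), and within replicates 1 and 2 Chrnb4 (-0.37), Chrna3 1452010_at (-0.0024) and 1444368_at (-0.029). Without single arrays Chrnb4 ran from -0.26 to 0.39, Chrna4 from -0.14 to 0.061 and Chrnb2 1420744_at from -0.21 to 0.013. With ICRF-193 they were Chrnb4 as deposited (0.019), and within replicates 1 and 2 Chrna4 (-0.013) and Chrnb2 1420744_at (-0.23). That Chrnb2 probe set had 0.23 over all arrays and 0.70 within replicates 3 and 4, so its sets of replicates differed in direction. Without single arrays Chrnb4 ran from -0.14 to 0.10 and Chrna4 from -0.084 to 0.11. None of these was called. Of the other cholinergic genes, the 1 that rose in the mutant became 0 with that block, against 332 lower and 386 higher of all without it. The 3 that rose with Smo2 became 1 among bright probe sets, since Chrnb1 and Lypd6 are dim. With ICRF-193 the block left 254 lower and 115 higher of all, against 443 and 269 without it. Of 646 alternative values 581 kept their direction and side of the threshold or stayed within the spread.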

Other observations

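Among genes outside the neuronal subunits, Chrnb1, the beta subunit of the muscle receptor, had 6.62 with Smo2 against 4.27 without it, a difference of 2.35 on a dim probe set (limma adjusted p = 0.000424, or 0.0111 with the replicate block). Of the other muscle subunits Chrna1, Chrne and Chrng had differences from 0.33 to 0.60, and none was called. Of the muscle genes Myog, a transcription factor of muscle precursors, rose by 2.97 (limma adjusted p = 0.00170) and Actc1, cardiac actin, by 2.09 (adjusted p = 0.00177) with Smo2, 2 of 6 listed genes. In the Chd7 mutant Myog rose by 2.4 (limma adjusted p = 0.0164, with the replicate block 0.0536), and Chrna1 had a difference of 0.85 (adjusted p = 0.483). Chrm3, a muscarinic receptor, had a difference of -1.86 with Smo2 that was called with the replicate block (limma adjusted p = 0.0284) and not without it (0.0688). Arrays of the same number did not resemble each other in that comparison, so the call with the block rests on no pairing.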
